A study of Mus musculus with 4 samples.

Results

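The genes described here encode the enzymes that trap glucose in the cell (hexokinases Hk1, Hk2 and Hk3), commit it to glycolysis (phosphofructokinases Pfkl, Pfkm and Pfkp), interconvert pyruvate and lactate (lactate dehydrogenase subunits Ldha and Ldhb) and carry lactate across the plasma membrane (monocarboxylate transporters Slc16a1 and Slc16a3). They were chosen by gene name, and all 10 were found among the 18674 gene names of the deposited table. A gene with several transcript rows was given the mean of its rows. RNA of the lumbar spinal cord was sequenced in 4 libraries, with 1 library for each genotype (WT or G93A) and each treatment (vehicle or SD). SD is spermidine, a polyamine, given by intraperitoneal injection at 5 mg/kg, 4 times per week. The mice were 100 days old when the cord was taken and had received SD or PBS (saline in the account of the injections) for 30 days, and only males were used for treatment. G93A mice are a high-expressing line that carries a human SOD1 transgene with the G93A mutation, in a B6/SJLF1 background, and WT mice are the wildtype controls. That transgene is driven by the human SOD1 promoter and is expressed in most cell types, so it does not single out motor neurons. The number of mice behind a library is not named, and with 1 library per condition no difference has a replicate check and no p-value is given.

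Glycolysis runs in all cells of the cord, but the genes for its control points exist in several copies that differ between cell types. Hk1 is the constitutive hexokinase of brain and cord, Hk2 is the insulin- and hypoxia-responsive form, and Hk3 is found mainly in myeloid cells. Lactate dehydrogenase is a tetramer of Ldha and Ldhb subunits, with the Ldha-rich enzyme favouring lactate production and the Ldhb-rich enzyme favouring lactate use. Slc16a1 (MCT1) carries lactate in oligodendrocytes, endothelium and other glia, and Slc16a3 (MCT4) is a low-affinity exporter of highly glycolytic cells. In oligodendrocytes, Slc16a1 is known for supplying lactate to axons.

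In the G93A libraries, Hk2, Hk3, Ldha, Slc16a1 and Slc16a3 were at least 1.5-fold higher than in the WT libraries, under both vehicle and SD. Of all names in the table, 11.6% were called higher in both comparisons. Hk1, Ldhb and all 3 phosphofructokinases differed by less than 1.5-fold in both comparisons. Hk2, Hk3 and Slc16a3, the members with the lowest levels, had the largest differences, which depend on the pseudocount. With a pseudocount of 1 RPKM in place of 0.1, that of Slc16a3 under SD (0.82) was below that of Slc16a1 (0.97). No member differed by 1.5-fold between SD and vehicle in either genotype, where 5.04% (WT) and 5.52% (G93A) of all names did. The libraries are of whole tissue, so that more (or fewer) cells of a type and more (or less) RNA per cell cannot be told apart.

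The sequences before the start sites of the 5 higher genes are shown because these genes were higher together in G93A. Each line holds the 250 bases before 1 RefSeq start of GRCm38.p6, on the strand of the gene, from 5′ to 3′. Capitals mark ACGTG on either strand, the core of the hypoxia response element (CACGT in the printed strand where the match is on the other), and AGGAAGT on either strand, a core bound by ETS factors (printed as ACTTCCT). Where ACGTG stands on both strands in overlap, the capitals read CACGTG. The windows lie at chr6:82774455-82774704 (Hk2, minus strand), chr13:55021386-55021635 (Hk3, minus strand), chr7:46845554-46845803 (Ldha, plus strand), chr3:104638414-104638663 (Slc16a1, plus strand) and chr11:120948817-120949066 (Slc16a3, plus strand). GENCODE M21 has no exon in the windows of Hk2, Hk3, Ldha and Slc16a1. The Slc16a3 window holds 14 exon bases of Slc16a3 itself. The Ldha window is intronic to a longer Ldha transcript, and the Slc16a3 window likewise lies inside the annotated Slc16a3 gene, which starts at 120948480.
Hk2: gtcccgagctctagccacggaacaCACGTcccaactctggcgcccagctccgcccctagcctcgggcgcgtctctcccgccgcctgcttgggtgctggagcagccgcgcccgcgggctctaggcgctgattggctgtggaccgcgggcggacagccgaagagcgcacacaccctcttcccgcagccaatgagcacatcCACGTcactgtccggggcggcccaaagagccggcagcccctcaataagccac
Hk3: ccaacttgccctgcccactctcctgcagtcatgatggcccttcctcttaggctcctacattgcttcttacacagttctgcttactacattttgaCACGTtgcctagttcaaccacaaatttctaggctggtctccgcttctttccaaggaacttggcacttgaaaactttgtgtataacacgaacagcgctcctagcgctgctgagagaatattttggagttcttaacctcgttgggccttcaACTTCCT
Ldha: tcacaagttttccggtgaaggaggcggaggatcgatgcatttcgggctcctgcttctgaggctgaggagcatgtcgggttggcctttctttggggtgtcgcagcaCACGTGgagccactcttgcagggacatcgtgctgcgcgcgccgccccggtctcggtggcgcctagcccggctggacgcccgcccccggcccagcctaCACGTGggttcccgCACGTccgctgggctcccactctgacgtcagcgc
Slc16a1: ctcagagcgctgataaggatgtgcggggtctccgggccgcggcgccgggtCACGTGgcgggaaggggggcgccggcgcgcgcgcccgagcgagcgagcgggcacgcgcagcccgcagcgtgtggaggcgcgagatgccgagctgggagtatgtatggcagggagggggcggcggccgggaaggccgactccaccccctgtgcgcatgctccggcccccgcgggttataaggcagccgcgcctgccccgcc
Slc16a3: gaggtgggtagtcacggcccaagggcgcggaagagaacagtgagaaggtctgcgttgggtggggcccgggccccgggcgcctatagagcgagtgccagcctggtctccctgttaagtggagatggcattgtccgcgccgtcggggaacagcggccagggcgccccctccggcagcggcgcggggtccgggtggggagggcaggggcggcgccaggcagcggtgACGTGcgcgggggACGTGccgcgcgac

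ACGTG occurred in at least 1 window of 6 of the 10 members, namely the 5 printed and Pfkm, and in 7 of the 15 windows that the table holds for them. Of all 32851 promoter windows of the same length, 16.6% held it. The printed Ldha window held 5 matches counted over both strands, with the CACGTG nearest to the start beginning 48 bases before it. The window before a second RefSeq start of Ldha, at chr7:46846832-46847081, held 0 matches and is not printed. In Slc16a3 the matches began 27 and 14 bases before the start. Hk2 held 2 matches, and Slc16a1 held 1 CACGTG, which counts on both strands. AGGAAGT was found in Hk3 alone among the members, beginning 7 bases before the start on the opposite strand, and in 7.69% of all windows. Members with several windows had more chances to hold a match, and a match is a description of the letters and not of binding.

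Levels are given in RPKM (reads scaled to transcript length and library size), so that they can be compared between genes of different length. The unit was inferred from the values. Differences are those of log2(RPKM + 0.1), which understates the change of low genes. Folds are ratios of RPKM with nothing added, so that fold and log2 difference do not match for low genes. A gene was called higher or lower where the log2 difference reached 1.5-fold. Depth was estimated at 3.68e+07 to 3.86e+07 read pairs per library, from the most frequent low product of value and length. All 10 members were above 0 in every library and had a mean of at least 1 RPKM, which Hk2, Hk3 and Slc16a3 reached only through the G93A libraries. 

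**Figure D1:**
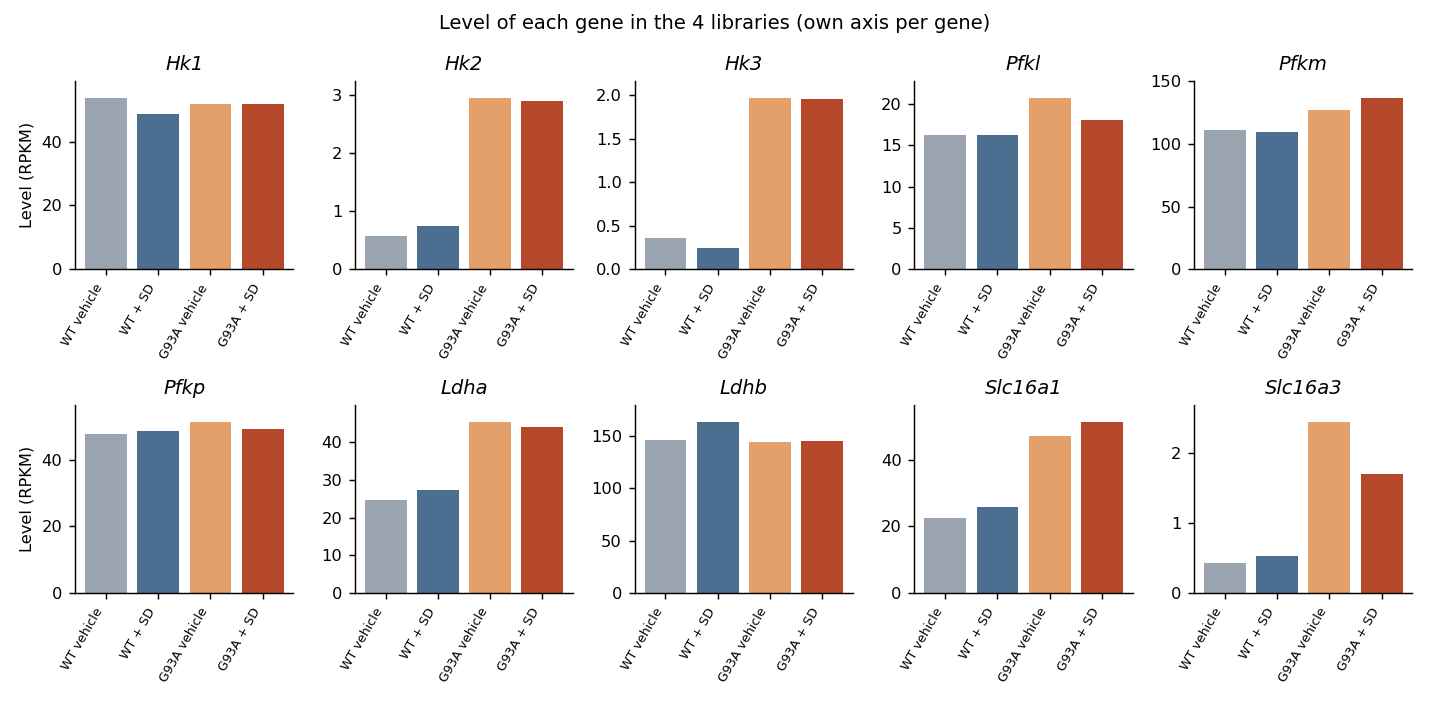
Level of each of the 10 genes in RPKM, with a bar for each of the 4 libraries and an axis from 0 for each gene. Both G93A bars stand above both WT bars for Hk2, Hk3, Ldha, Slc16a1 and Slc16a3, by at least 1.5-fold, while the bars of Hk1, Pfkp and Ldhb lie within 1.13-fold.

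The comparison of G93A vehicle with WT vehicle asks what differs in the cord of ALS mice, and that of G93A + SD with WT + SD asks the same with libraries that the first does not use. Of the 10 members, 5 were called higher and 0 lower in each, and they were the same 5 genes. Under vehicle, 14.4% of the 18674 names were called higher and 5.31% lower, 19.7% in all. Under SD, 17.1% were called higher and 7.82% lower, 24.9% in all. Among the 12987 names that averaged at least 1 RPKM, the shares were 13.1% higher and 4.34% lower (17.4% in all) under vehicle and 15.8% higher and 7.85% lower (23.7% in all) under SD. Of all names, 11.6% were called higher in both comparisons. The 5 of 10 members called higher are to be read against the shares over all names, since 3 of the 5 (Hk2, Hk3 and Slc16a3) pass a filter on the mean only through the G93A libraries. The members were not tested against these shares. The median log2 difference of the members was 0.61 under vehicle, against 0.046 over all names. Under SD it was 0.50, against 0.050. Under vehicle the members ranged from -0.05 (Hk1) to 2.25 (Slc16a3), and under SD from -0.17 (Ldhb) to 2.56 (Hk3).

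Hk1, on chromosome 10 of GRCm38 from 62268855 to 62379908 (minus strand), was the predominant hexokinase in every library. It had 53.6 RPKM in WT vehicle and 48.6 in WT + SD, against 51.8 in G93A vehicle and 51.9 in G93A + SD. The WT libraries lay on either side of the G93A libraries, which were nearly equal. The log2 difference of G93A against WT was -0.05 under vehicle and 0.09 under SD. Of its listed transcripts, 157 exon bases overlap Hk1os on the opposite strand, and nothing states that counting was stranded.

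Hk2, on chromosome 6 from 82725025 to 82774454 (minus strand), encodes a hexokinase that binds mitochondria and is abundant in muscle and many tumours. Its level was 0.569 RPKM in WT vehicle and 0.736 in WT + SD, against 2.94 in G93A vehicle and 2.90 in G93A + SD. Both G93A values lay above both WT values, and the G93A values were nearly equal. This was 5.17-fold higher in G93A under vehicle (log2 difference 2.18) and 3.94-fold higher under SD (1.84). About 116 and 155 read pairs were estimated behind the WT values and 616 behind each G93A value. The 7 skeletal muscle markers together summed to 0.938 to 1.18 RPKM, with 0 of them called higher under vehicle and 2 under SD.

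Hk3, on chromosome 13 from 55005985 to 55021385 (minus strand), had the lowest mean of the members, 1.13 RPKM. Its level was 0.359 RPKM in WT vehicle and 0.249 in WT + SD, against 1.97 in G93A vehicle and 1.96 in G93A + SD. The WT libraries were low and the G93A libraries high without overlap, and Hk3 had the widest range of the members over the 4 libraries. The fold was 5.48 under vehicle (log2 difference 2.17) and 7.87 under SD (2.56). About 42.5 and 30.7 read pairs were estimated behind the WT values, against 241 and 244 behind the G93A values. The only exonic overlap was 34 bases with Unc5a on the opposite strand.

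The names whose pattern over the 4 libraries was most like that of Hk3 were Prrx2, Il3ra and Sfpi1, by the Euclidean distance between log2 values centred on their mean, among names with a mean of at least 1 RPKM. Their distances were 0.0946 for Prrx2, 0.117 for Il3ra and 0.120 for Sfpi1. Sfpi1, the older symbol for the gene of the myeloid transcription factor PU.1, had 1.76 RPKM in WT vehicle and 1.19 in WT + SD, against 7.44 in G93A vehicle and 7.80 in G93A + SD. Il3ra, a cytokine receptor subunit, had 0.370, 0.301, 2.14 and 2.16 RPKM in the same order. Prrx2, a homeobox gene, had 0.480, 0.380, 2.55 and 2.54 RPKM. Likeness over 4 libraries is a description. Hk3, Prrx2 and Il3ra reach a mean of 1 RPKM only through the G93A libraries, so that the filter itself favours names that are high there.

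The summed hexokinase level was 54.5 RPKM in WT vehicle and 49.6 in WT + SD, against 56.7 in G93A vehicle and 56.7 in G93A + SD. Its makeup differed more than its sum. Hk1 made up 98.3% of it in WT vehicle and 98.0% in WT + SD, against 91.3% in G93A vehicle and 91.4% in G93A + SD. Hk2 made up 1.04% and 1.48% in the WT libraries and 5.19% and 5.10% in the G93A libraries, and Hk3 0.658% and 0.502% against 3.47% and 3.46%. Hk1 was 94.2 times as high as Hk2 in WT vehicle and 66.1 times in WT + SD, against 17.6 and 17.9 times in G93A vehicle and G93A + SD. Hkdc1, which encodes a protein with hexokinase domains, was low, between 0.0899 and 0.166 RPKM.

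The phosphofructokinase genes encode the muscle (Pfkm), platelet (Pfkp) and liver (Pfkl) forms of the enzyme, which assemble into tetramers. Pfkm, on chromosome 15 from 98092589 to 98132451 (plus strand), was the highest, with 111 RPKM in WT vehicle and 109 in WT + SD, against 127 in G93A vehicle and 137 in G93A + SD. Both G93A values lay above the WT values, by 1.14-fold under vehicle and 1.25-fold under SD, which is below the threshold. Its 3 rows had nearly the same fold, since the transcripts share most of their exons.

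Pfkl, on chromosome 10 from 77986947 to 78010083 (minus strand), had 16.2 RPKM in both WT libraries, 20.7 in G93A vehicle and 18.0 in G93A + SD. The difference was 1.28-fold under vehicle and 1.11-fold under SD. Pfkp, on chromosome 13 from 6579768 to 6648777 (minus strand), was the flattest member, with 47.9 RPKM in WT vehicle and 48.7 in WT + SD, against 51.5 in G93A vehicle and 49.4 in G93A + SD. Its log2 difference was 0.10 under vehicle and 0.02 under SD, and the latter turned to -0.01 with median-ratio scaling. Of the Pfkp transcript, 748 bases overlap exons of Pitrm1 on the opposite strand, so that its level is uncertain to that extent. Pfkm made up 63.5% of the summed level in WT vehicle and 62.8% in WT + SD, against 63.8% in G93A vehicle and 66.9% in G93A + SD. The order Pfkm, Pfkp, Pfkl held in every library.

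**Figure D2:**
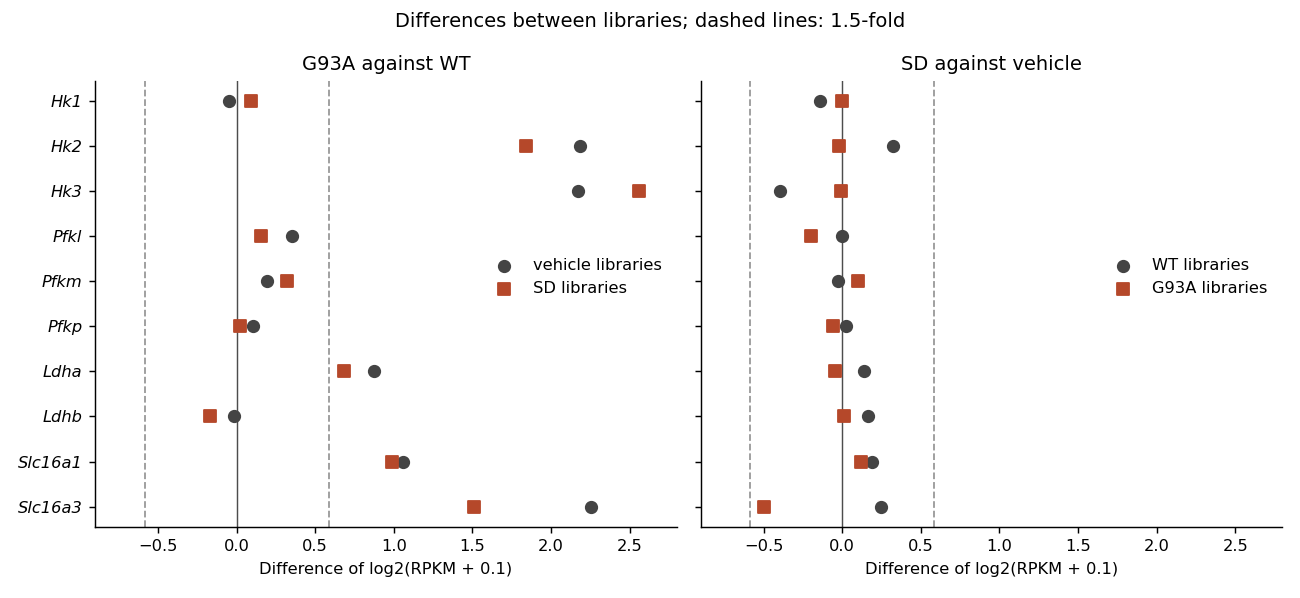
Difference of log2(RPKM + 0.1) for each gene, with G93A against WT on the left (circles for vehicle libraries, squares for SD libraries) and SD against vehicle on the right (circles for WT, squares for G93A). Dashed lines mark 1.5-fold, which 5 genes pass on the left with both symbols and 0 genes pass on the right. Of all names, 11.6% were called higher in both comparisons on the left. On the right, 5.04% of all names were called in WT and 5.52% in G93A.

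Ldha, on chromosome 7 from 46841475 to 46855627 (plus strand), had 24.8 RPKM in WT vehicle and 27.3 in WT + SD, against 45.5 in G93A vehicle and 44.0 in G93A + SD. The G93A libraries were nearly equal and well above both WT libraries. It was 1.83-fold higher in G93A under vehicle (log2 difference 0.87) and 1.61-fold higher under SD (0.69). Its 2 rows agreed in fold, with 23.1 and 26.5 RPKM in WT vehicle and 42.5 and 48.4 RPKM in G93A vehicle. Among names with a mean of at least 1 RPKM, 8.07% had a difference as high under vehicle and 13.6% under SD.

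Ldhb, on chromosome 6 from 142490249 to 142507957 (minus strand), was the highest of all members. It had 146 RPKM in WT vehicle and 164 in WT + SD, against 144 in G93A vehicle and 146 in G93A + SD. The WT + SD library stood above the other three, which were nearly equal. Its log2 difference of G93A against WT was -0.02 under vehicle and -0.17 under SD. Both lactate dehydrogenase genes share sequence with other annotated genes. Of the 53-base windows of the Ldhb transcript, 25.2% also occur in Gm5514, and of those of the listed Ldha transcripts, 14.4% and 16.5% occur in 12 other genes. How reads from such stretches were assigned is not stated, so these levels are uncertain.

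Ldha made up 14.5% of the summed Ldha and Ldhb level in WT vehicle and 14.3% in WT + SD, against 24.0% in G93A vehicle and 23.2% in G93A + SD. Ldhb was 5.88 and 5.99 times as high as Ldha in WT vehicle and WT + SD, against 3.17 and 3.31 times in G93A vehicle and G93A + SD. The summed level was 171 RPKM in WT vehicle, 191 in WT + SD and 190 in each G93A library. The sum did not separate the genotypes, whereas the share of Ldha did.

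Slc16a1, on chromosome 3 from 104638668 to 104658462 (plus strand), had 22.6 RPKM in WT vehicle and 25.8 in WT + SD, against 47.3 in G93A vehicle and 51.4 in G93A + SD. Both G93A values were above both WT values. It was 2.09-fold higher under vehicle (log2 difference 1.06) and 1.99-fold higher under SD (0.99), the most even pair of folds among the 5 higher genes. It rests on about 3691 read pairs in WT vehicle and 7957 in G93A vehicle. None of the 53-base windows of its transcript, nor of those of Slc16a3, Hk2 and Hk3, occur in transcripts of another gene.

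Slc16a3, on chromosome 11 from 120948480 to 120960868 (plus strand), had 0.433 RPKM in WT vehicle and 0.532 in WT + SD, against 2.44 in G93A vehicle and 1.70 in G93A + SD. The genotypes did not overlap, but unlike Hk2 and Hk3 the G93A libraries differed from each other. It was 5.64-fold higher in G93A under vehicle (log2 difference 2.25) and 3.20-fold higher under SD (1.51). Its 3 rows gave nearly the same levels, between 2.41 and 2.49 RPKM in G93A vehicle and between 1.68 and 1.73 RPKM in G93A + SD. For the longest of its transcripts, about 68.6 read pairs were estimated in WT vehicle and 89.1 in WT + SD, against 399 in G93A vehicle and 283 in G93A + SD. Slc16a3 made up 1.87% and 2.02% of the summed level of both transporters in the WT libraries, 4.91% in G93A vehicle and 3.20% in G93A + SD.

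**Figure D3:**
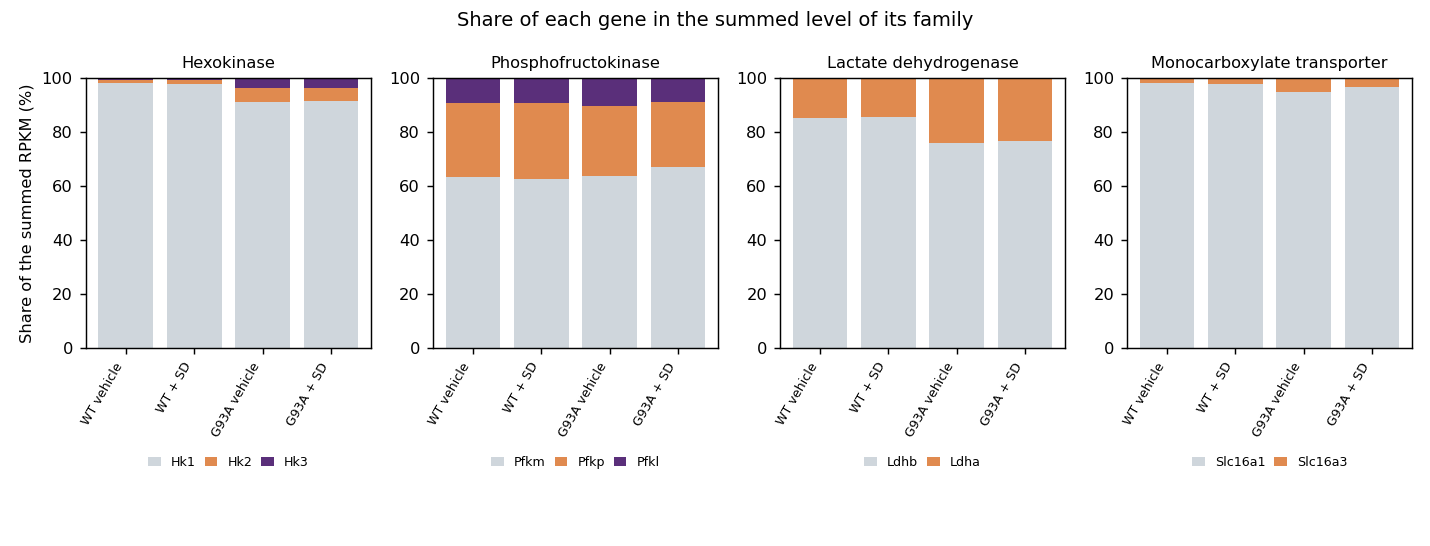
Share of each gene in the summed RPKM of its family, in percent, with a stacked bar for each library. Hk2 and Hk3 take a larger share of the hexokinases in the G93A bars and Ldha takes 24.0% and 23.2% of lactate dehydrogenase there, against 14.5% and 14.3% in the WT bars, while the phosphofructokinase bars differ little.

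The comparison of SD with vehicle asks whether SD moved these genes in WT or G93A cord. It shares its vehicle libraries with the comparison under vehicle and its SD libraries with the comparison under SD. Of the 10 members, 0 were called in WT, where 2.25% of all names were called higher and 2.8% lower (5.04% in all). Among names averaging at least 1 RPKM these shares were 0.732% and 1.16% (1.89% in all). Likewise 0 members were called in G93A, where 2.97% of all names were called higher and 2.55% lower (5.52% in all), or 1.24% and 0.932% (2.17% in all) with a mean of at least 1 RPKM. A count of 0 of 10 is near these shares.

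In WT the largest differences were those of Hk3, which was 1.44-fold lower in WT + SD (log2 difference -0.39), and Hk2, which was 1.29-fold higher (0.32). Both rest on low levels. The other members lay between -0.14 (Hk1) and 0.25 (Slc16a3). Slc16a1 was 1.14-fold higher in WT + SD, and Ldhb 1.12-fold. In the same library the red blood cell genes summed to 69.3 RPKM over 5 genes, against 34.4 RPKM in WT vehicle, and the part of blood in these values was not tested.

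In G93A the largest difference was that of Slc16a3, which was 1.43-fold lower in G93A + SD (log2 difference -0.50), followed by Pfkl, which was 1.15-fold lower (-0.20). Hk1, Hk2, Hk3 and Ldhb stayed within 0.03 of 0 on the log2 scale. Slc16a1 was 1.09-fold higher (0.12) and Pfkm 1.07-fold (0.10). The median over the members was -0.01 in G93A and 0.08 in WT.

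The other genes of glucose metabolism were counted over 8 lists with 73 genes in the table. In G93A vehicle against WT vehicle, 9 of them (12.3%) were called higher and 0 lower, close to the background of 14.4% for higher genes. Under SD, 9 (12.3%) were higher and 2 (2.74%) lower, Eno2 and Pdk3. By list, 3 of 10 glycogen genes and 2 of 7 transcriptional regulators were higher under vehicle, and 2 and 2 under SD. Of the 7 other lactate and monocarboxylate genes, 0 were called in either. The pentose phosphate list had 0 of 7 higher under vehicle and 1 (Pgls) under SD. Over all 73 genes, the median log2 difference was 0.07 under vehicle and -0.01 under SD, and over the pentose phosphate list it was 0.34 and 0.48. The later glycolytic enzymes gave 1 gene higher of 14 in each comparison, Pklr, which lay between 0.148 and 0.406 RPKM. Eno2, the neuronal enolase, had 308 RPKM in each WT library, against 212 in G93A vehicle and 187 in G93A + SD. Gapdh is listed at only 1.67 to 1.82 RPKM. It has many processed pseudogenes, and its value was not read as a level.

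Of the 64 genes of these lists that averaged at least 1 RPKM, 7 (10.9%) were at least 1.5-fold higher in G93A in both comparisons. This is near the 11.7% of all names at that level, and the 7 genes are given as a description. Slc2a4, the insulin-responsive glucose transporter GLUT4, had 2.27 RPKM in WT vehicle and 1.54 in WT + SD, against 3.71 in G93A vehicle and 5.71 in G93A + SD. Pfkfb4, which makes and breaks down the activator of phosphofructokinase, had 3.40, 3.80, 6.30 and 6.07 RPKM in the same order. Pdk4, a kinase that switches off pyruvate dehydrogenase, had 6.49, 5.37, 11.8 and 12.5 RPKM. In the glycogen list, the phosphorylase Pygl had 1.60, 1.43, 3.17 and 3.01 RPKM and the phosphoglucomutase Pgm1 had 3.21, 3.38, 5.88 and 6.53 RPKM. Among the transcriptional regulators, Hif1a had 28.1, 28.8, 46.2 and 51.9 RPKM, and Myc had 1.16, 1.06, 3.68 and 4.23 RPKM. Hif1a encodes the oxygen-regulated subunit of the hypoxia-inducible factor and Myc a growth-related factor, and both are known to act on genes of glycolysis.

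Of these 7 genes, Slc2a4 was also the one called between SD and vehicle in G93A, where it was 1.54-fold higher, while in WT it was 0.679 times the vehicle level. Of the lists as a whole, 0 genes were called in WT, and in G93A 1 was higher and 2 lower, Ldhal6b and Pfkfb1, both with a mean below 1 RPKM. The proteins that escort the lactate transporters to the membrane were not called. Bsg had 156 RPKM in WT vehicle and 164 in WT + SD, against 179 in G93A vehicle and 162 in G93A + SD, and Emb had 19.0, 20.6, 14.7 and 15.3 RPKM. Slc16a7 (MCT2), the neuronal transporter, had 2.09 and 2.12 RPKM in the WT libraries and 2.86 and 2.89 RPKM in the G93A libraries, 1.37-fold higher in each comparison. The glucose transporters Slc2a1 and Slc2a3 were not called either.

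**Figure D4:**
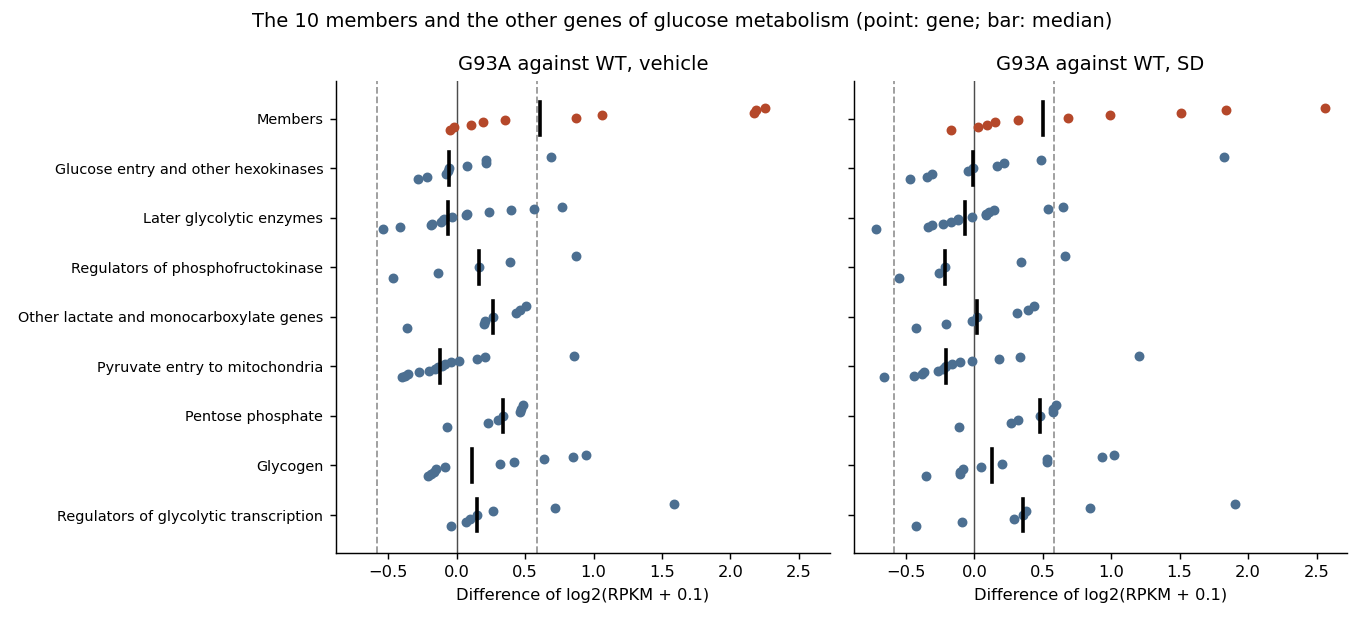
Difference of log2(RPKM + 0.1) of G93A against WT for the 10 members and for 8 lists of other genes of glucose metabolism, under vehicle (left) and SD (right). Each point is a gene, black bars are medians and dashed lines mark 1.5-fold, and the members reach further to the right than the other lists.

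Microglial genes were higher in G93A in the same libraries. Their 10 markers summed to 171 RPKM in WT vehicle and 156 in WT + SD, against 959 in G93A vehicle and 972 in G93A + SD, with none at 0. Of them, 8 were called higher under vehicle and 9 under SD, with median log2 differences of 2.10 and 2.32. The differences of Hk2 (2.18 and 1.84), Hk3 (2.17 and 2.56) and Slc16a3 (2.25 and 1.51) lay within the range of these markers, which went from 0.07 (P2ry12) to 3.83 (Tyrobp) under vehicle and from 0.28 to 4.24 under SD. Ldha (0.87 and 0.69) and Slc16a1 (1.06 and 0.99) also lay within this range, below the median of these markers in both comparisons. Under SD, Hk2 and Slc16a3 lay below that median as well. Under vehicle the range also held Pfkl (0.35), Pfkm (0.19) and Pfkp (0.10), so that lying within it does not set a member apart.

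Of 9 astrocyte markers, 5 were called higher under vehicle and 6 under SD, and together they summed to 1502 and 1441 RPKM in the WT libraries and to 3527 and 4095 RPKM in the G93A libraries. Their log2 differences ranged from -0.21 (Fgfr3) to 2.36 (Gfap) under vehicle and from -0.24 (S100b) to 2.81 (Gfap) under SD. Gfap alone had 441 and 386 RPKM in the WT libraries and 2269 and 2707 RPKM in the G93A libraries. The 8 neutrophil markers in the table summed to 1.14 and 0.854 RPKM in the WT libraries and to 2.56 (vehicle) and 0.922 (SD) RPKM in the G93A libraries, with 2 at 0 in each WT library, 0 in G93A vehicle and 3 in G93A + SD. Of them, 2 were called higher under vehicle (S100a8 and S100a9) and 2 under SD (Ngp and Camp). Of 8 neuron markers, 3 were at least 1.5-fold lower under vehicle and 4 under SD, and of 7 motor neuron markers 3 and 5. The neuron markers summed to 1741 and 1743 RPKM in the WT libraries and to 1117 and 965 RPKM in the G93A libraries. Motor neuron markers summed to 98.2 and 87.1 RPKM against 67.0 and 48.0 RPKM. Of 9 oligodendrocyte markers, 1 was higher in each comparison and 1 lower under SD, and of 7 endothelial markers 0 were higher in either and 2 were lower under SD. Of the 5 red blood cell markers, 4 were higher under vehicle, where they summed to 51.7 RPKM in G93A against 34.4 in WT, and 0 under SD. The part of these cell types in the differences of the members was not tested.

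**Figure D5:**
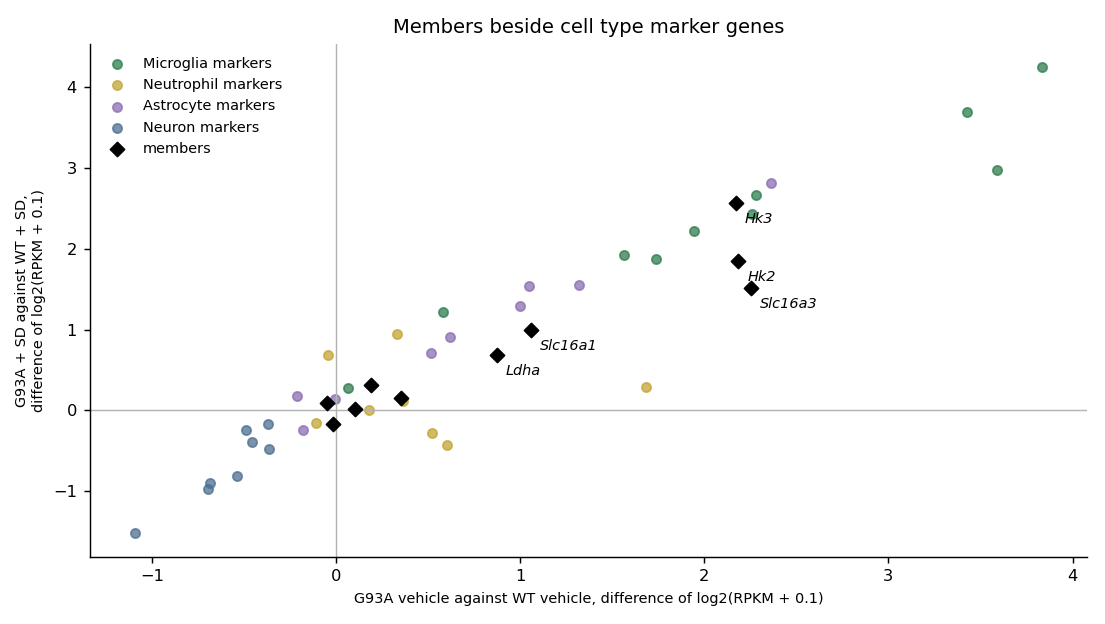
Difference of log2(RPKM + 0.1) of G93A against WT under vehicle (horizontal axis) and under SD (vertical axis), with a diamond for each of the 10 members and a circle for each microglial, neutrophil, astrocyte or neuron marker. Hk3 lies among microglial markers and the astrocyte marker Gfap, Hk2 and Slc16a3 are as high under vehicle but lower under SD, and Slc16a1 and Ldha lie nearer to 0.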

How the data were processed

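Lumbar spinal cord RNA was measured in 4 libraries, grouped by the sample labels. The authors deposited 1 table of RefSeq transcripts with 1 value column per library and no named unit. The deposited values were taken as RPKM, because the products of value and length gave close totals (1.12e+09 per library). The authors' methods name polyA selection, 53 bp reads, STAR alignment to GRCm38 and HTSeq counting on Ensembl genes, with no step leading to these values. Their 3 ratio columns were not used. Rows of a name were averaged. Differences of log2(RPKM + 0.1) were called at 1.5-fold over all 18674 names, with no filter and no test. Transcript lengths (23026 of 23750 rows) and positions came from GENCODE M21 on GRCm38. Depth was estimated from the most frequent product of value and length within a fixed low range. That product was assumed to stand for 1 read pair. Read sharing was checked with 53-base windows of the transcripts, on both strands. Promoters came from RefSeq, where all 10 members matched.

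The members and lists were chosen with earlier results of these data known, and the motifs and family shares after the values were seen. Named genes are the members, pathway genes averaging at least 1 RPKM that differed by 1.5-fold the same way in both comparisons of a kind, and the 3 names nearest to the member with the widest range. Other pathway genes were named after their values were seen. Alternatives were a pseudocount of 1 RPKM or none, a filter at a mean of 1 RPKM, median-ratio scaling, the highest or any row of a name, and a 2-fold threshold. The calling step was run on simulated data with planted changes above the threshold and little noise. That run cannot show how far animals or low genes vary. Tools were matplotlib 3.10.9, pandas 2.3.3 and numpy 2.4.6, run in Python 3.11.15.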

Additional observations from a re-analysis of the deposited data

Results flagged for a closer look

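For 6 members the libraries moved in opposite directions between SD and vehicle in the 2 genotypes. The share of all names that did so was not counted, so that the count of members is a description only. With 1 library per condition the difference between genotypes was not tested. The log2 difference in G93A minus that in WT was -0.74 for Slc16a3, from 0.25 in WT and -0.50 in G93A. It was -0.34 for Hk2, -0.19 for Ldha, 0.14 for Hk1, 0.13 for Pfkm and -0.0815 for Pfkp. For Hk1 the log2 difference of G93A against WT also went opposite ways, -0.05 under vehicle and 0.09 under SD, which is the same 0.14. The difference of Hk1 between the G93A libraries turned to -0.0050 with median-ratio scaling, the same direction as in WT, which leaves 5 members. None of these single differences reached 1.5-fold.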

How the results depend on the processing

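The 5 members called in each comparison of G93A with WT, and the 0 called in each of SD with vehicle, came out as the same counts under 6 of the 7 alternatives. With a 2-fold threshold, 4 members were called under vehicle (without Ldha) and 3 under SD (without Ldha and Slc16a1). Counts over the whole table moved more. In the order G93A vehicle against WT vehicle, G93A + SD against WT + SD, SD against vehicle in WT and SD against vehicle in G93A, they were 3678, 4649, 942 and 1031 names. With a pseudocount of 1 RPKM they were 1907, 2732, 133 and 197, with a mean of at least 1 RPKM 2259, 3075, 246 and 282, and with a 2-fold threshold 1578, 2068, 273 and 285. With no pseudocount the SD counts were 1949 in WT and 2048 in G93A. The median over the members moved by less than 0.1 on the log2 scale under every alternative that gives one. No called difference of a member changed direction, and 2 differences near 0 (Pfkp under SD, and Hk1 between the G93A libraries) changed sign with median-ratio scaling. A pseudocount of 1 RPKM lowered the log2 differences of the low genes, under vehicle and SD, to 1.33 and 1.17 for Hk2, 1.13 and 1.25 for Hk3, and 1.26 and 0.82 for Slc16a3. No paired analysis was possible because each condition has 1 library with no replicate number, and for the same reason no replicate could be left out. Depth is known only as an estimate.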
